A study of Homo sapiens with 25 samples.

Results

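The nuclear genes TFAM, TFB2M, POLRMT, TEFM, LRPPRC, SLIRP, PNPT1, SUPV3L1, TWNK and POLG, encode the core proteins that transcribe and copy mitochondrial DNA and that stabilise or degrade its RNA. They were chosen by name, for their known roles, but with earlier results of these data known. They are 10 of the 60179 gene identifiers in the expression table. All 10 passed the filter on low values, a mean of at least 1 TPM (a length-corrected share of the transcripts of a library, scaled to a fixed total) over the 9 RNA libraries, which left 13753 genes to test. They are set beside the summed level of the 13 protein-coding genes of mitochondrial DNA itself. These are called the 13 MT- mRNAs below, with 1 value per gene, also where genes share a transcript.

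The cells were HEC-1A, an epithelial line grown from a human endometrial adenocarcinoma and labelled wild type. RNA was sequenced from 3 libraries after 24 h of 20 µM THC (tetrahydrocannabinol, a plant cannabinoid), 3 after 72 h of 20 µM THC and 3 of untreated cells. ATAC-seq, which maps open DNA by transposon insertion, had the same groups with 3 libraries each. H3K4me3, a histone mark of active promoters, was mapped by CUT&RUN in 3 libraries with 20 µM THC, whose labels give no time, and 3 untreated. A single line stands for the tumour type here, and the labels give untreated cells neither a vehicle nor a time in culture, so time in culture and THC exposure cannot be told apart. The titles number the libraries of each group as biological replicates.

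Human mitochondrial DNA is a small circle transcribed from both strands as long precursors. POLRMT, a single-subunit RNA polymerase, starts on promoters that TFAM bends and TFB2M helps to open, and TEFM keeps it elongating. LRPPRC and SLIRP form a complex that protects the mature mRNAs, while the helicase SUPV3L1 and the nuclease PNPT1 form the complex that degrades mitochondrial RNA. TWNK is the replicative helicase and POLG the catalytic subunit of the replicative DNA polymerase, and TFAM also packages the DNA into nucleoids.

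The sequences upstream of the 3 initiation genes are shown because each holds a match to the NRF1 motif. Under THC the mRNAs of TFAM and TFB2M fell and that of POLRMT did not. NRF1 is a transcription factor of many nuclear genes for mitochondrial proteins. The motif searched was GCGCANGCG on both strands. Each run is the 150 bases before the RefSeq start (GRCh38.p14), read 5′ to 3′ on the strand of the gene, with motif matches in capitals. TFAM is read on the plus strand at chr10:58385260-58385409, TFB2M on the minus strand at chr1:246566262-246566411 and POLRMT on the minus strand at chr19:633538-633687. In POLRMT the first block of capitals is a match to the ETS motif CCGGAAGT, the letters bound by GABPA, and the second holds overlapping NRF1 matches.
TFAM: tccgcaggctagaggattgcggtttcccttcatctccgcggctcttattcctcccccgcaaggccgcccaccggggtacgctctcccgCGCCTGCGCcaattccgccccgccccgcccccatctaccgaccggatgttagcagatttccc
TFB2M: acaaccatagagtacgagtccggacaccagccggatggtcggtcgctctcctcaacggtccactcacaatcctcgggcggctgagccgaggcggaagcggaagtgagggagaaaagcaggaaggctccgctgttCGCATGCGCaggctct
POLRMT: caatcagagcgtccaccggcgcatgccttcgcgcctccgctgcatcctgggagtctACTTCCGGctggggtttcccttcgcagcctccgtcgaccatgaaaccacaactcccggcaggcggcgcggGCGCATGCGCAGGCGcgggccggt

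The NRF1 letters lay at bases -62 to -54 from the start in TFAM and at -16 to -8 in TFB2M. In POLRMT they lay between -24 and -10, in 3 matches that share bases. Over the 300-base promoter table, which runs from 250 bases before to 50 bases after a start, 8.05% of 27305 promoters held the NRF1 letters, and 3 of the 9 member promoters in that table did. The 27305 include genes below the filter on low values, which all members passed, so the share is not that of tested genes. The table holds no TWNK entry. The ETS letters stood in 4.44% of promoters and in POLRMT and TEFM, in TEFM across the start itself. YY1 letters, AAGATGGCG, stood in 1.85% of promoters and in SLIRP, just past its start. The interferon element GAAANNGAA stood in 8.29% and in SUPV3L1. The CHOP-ATF letters TGATGCAA (0.923% of promoters) and the E-box CACGTG (7.43%) were in no member promoter. These matches describe the letters in the window only.

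The libraries were of the labelled cell type by their markers. All 7 epithelial markers had a mean of at least 1 TPM, and their summed level was 2935 to 5147 TPM per library. The endothelial and immune markers all had a mean below 1 TPM, with summed levels of 0.0428 to 0.373 TPM for the endothelial list and 0.238 to 1.90 TPM for the immune list. Of 6 stromal markers 1 passed, with a sum of 0.537 to 3.22 TPM and LUM at 0. Replicates of a group correlated at 0.989 to 0.995, and none was a copy of another. The marker sums also differed between the groups. The epithelial sum was 5033 ± 102 TPM at 24 h, 3738 ± 122 TPM at 72 h and 3015 ± 70.1 TPM in untreated cells (SD, n = 3 each). By gene, all 7 epithelial markers were called higher at 24 h, but not at 72 h. At 72 h KRT18 and KRT7 were higher (log2 changes 0.93 and 0.30) and CDH1 and EPCAM lower (-0.40 and -0.14). KRT8, KRT19 and CLDN4 were not called at 72 h. The stromal sum was 0.899 ± 0.315 TPM at 24 h and 1.06 ± 0.199 TPM at 72 h, against 3.10 ± 0.113 TPM in untreated cells, and COL1A1, the stromal marker that passed, was called lower at both times (log2 changes -1.23 and -1.22). The immune sum was 1.14 ± 0.138 TPM at 24 h and 1.45 ± 0.394 TPM at 72 h, against 0.311 ± 0.0632 TPM in untreated cells. The endothelial sum was 0.0649 ± 0.0231 TPM at 24 h and 0.175 ± 0.172 TPM at 72 h, against 0.0874 ± 0.0147 TPM in untreated cells. The part of these sums in the results below was not tested. ATAC lists held 38495 to 150884 peaks and H3K4me3 lists 30098 to 35879. TPM keeps no sequencing depth, so the depth behind the RNA values is unknown.

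The mitochondrial mRNAs fell at both times. Their sum was 27326, 28244 and 28449 TPM after 24 h of THC and 9314, 10975 and 11065 TPM after 72 h, against 72738, 67069 and 73935 TPM in untreated cells. The 3 groups did not overlap. As a share of all transcripts this was 2.80% ± 0.0598 at 24 h, 1.05% ± 0.0986 at 72 h and 7.12% ± 0.367 in untreated cells (SD, n = 3 each). The sum was 2.54-fold lower at 24 h and 6.83-fold lower at 72 h, and each difference gave p = 0.1 by an exact two-sided permutation test, the smallest that 3 against 3 libraries allow. In bulk RNA, fewer cells of a type and less RNA per cell cannot be told apart, and a TPM is a share, so an absolute amount per cell was not measured.

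All 13 mRNAs passed the gene-wise test (limma, adjusted p below 0.05 over all tested genes) as lower in each of the 3 comparisons. All but MT-ND6 are read from the heavy-strand promoter, and their sum was 2.53-fold lower at 24 h and 6.81-fold lower at 72 h. MT-ND6, the mRNA of the light-strand precursor and a complex I subunit, had 6.75, 10.2 and 5.67 TPM at 24 h and 2.63, 2.78 and 3.58 TPM at 72 h, against 233, 240 and 216 TPM in untreated cells. Its log2(TPM + 1) change was -4.79 (SE 0.164, adjusted p = 3.62e-09) at 24 h and -5.86 (adjusted p = 1.08e-09) at 72 h. It lies antisense to heavy-strand RNA, and the sources used here do not say whether counting used the strand. Among the other mRNAs at 24 h the log2 change ran between -2.11 for MT-CO2, a cytochrome c oxidase subunit, and -0.63 for MT-ATP6, an ATP synthase subunit. At 72 h the same genes bounded the range, with -3.76 for MT-CO2 and -2.05 for MT-ATP6. The TPM values of the 2 mitochondrial rRNAs did not follow the mRNAs at either time against untreated cells. MT-RNR1 plus MT-RNR2 came to 5714 ± 60.5 TPM at 24 h and 2516 ± 169 TPM at 72 h, against 2911 ± 78.3 TPM in untreated cells (SD, n = 3 each). The rRNA sum was 1.96-fold higher at 24 h and 1.16-fold lower at 72 h, where the mRNA sum was 2.54-fold and 6.83-fold lower. Between the times both sums fell, by 2.28-fold for the rRNAs and 2.69-fold for the mRNAs. In untreated cells the rRNA sum was far below the mRNA sum of 71247 TPM. Whether rRNA removal during library preparation shaped the rRNA values was not tested.

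**Figure D1:**
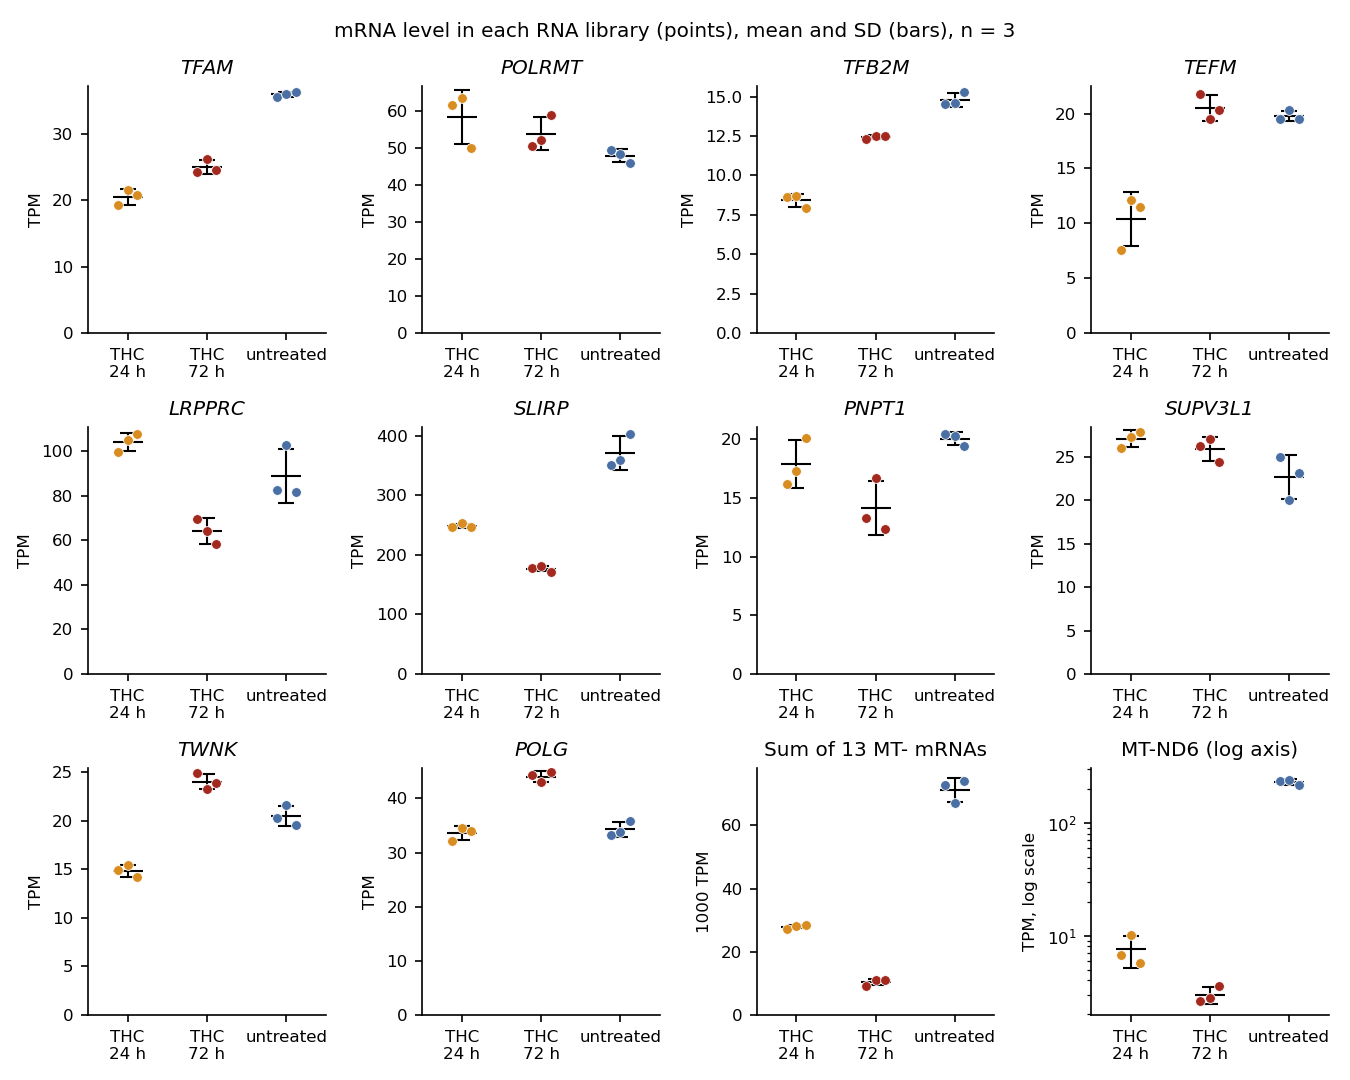
Level of each of the 10 mRNAs in TPM (vertical axes from 0), the summed 13 MT- mRNAs (1 axis unit is 1000 TPM) and MT-ND6 on a log axis, by library (points), with the mean and SD (bars, n = 3), for THC at 24 h, THC at 72 h and untreated cells. The MT- mRNA sum lies at 9314 to 11065 TPM in the 72 h libraries and at 67069 to 73935 TPM in untreated ones, while no factor changed as far as that sum.

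The 10 factors moved in both directions. At 24 h 3 were called higher and 5 lower, where 25.0% of all tested genes were called higher, 51.7% lower and 76.7% in either direction. At 72 h 2 were called higher and 5 lower, where 40.1% were called higher, 33.0% lower and 73.1% in either direction. With most genes called, neither count is a result about the 10 genes, and their single values are given below by role. The median log2 change of the 10 was -0.30 at 24 h and -0.10 at 72 h, beside -0.23 and 0.06 over all tested genes. Their summed level was 544 ± 13.6 TPM at 24 h and 461 ± 8.16 TPM at 72 h, against 676 ± 24.3 TPM in untreated cells (SD, n = 3 each). It was 1.24-fold lower at 24 h and 1.47-fold lower at 72 h (exact two-sided permutation test, p = 0.1 each, the smallest possible). Both comparisons use the same untreated libraries.

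The initiation factors TFAM and TFB2M fell at both times. TFAM (chr10:58385410-58399220) had 19.2, 21.5 and 20.7 TPM at 24 h and 24.2, 26.1 and 24.5 TPM at 72 h, against 35.5, 35.9 and 36.3 TPM in untreated cells. All 6 treated libraries lay below all untreated ones, and the 72 h libraries lay above the 24 h ones. Its log2 change was -0.79 (95% interval -0.91 to -0.66, adjusted p = 4.44e-07) at 24 h and -0.51 (-0.63 to -0.39, adjusted p = 1.26e-05) at 72 h, which left 56.9% and 69.4% of the untreated mean. TFB2M (chr1:246540561-246566261), the least abundant of the 10 in every group, had 8.60, 8.71 and 7.95 TPM at 24 h and 12.3, 12.5 and 12.5 TPM at 72 h, against 14.5, 14.6 and 15.3 TPM in untreated cells. The groups did not overlap. The log2 change of TFB2M was -0.75 (-0.87 to -0.62, adjusted p = 7.97e-07) at 24 h and -0.24 (-0.36 to -0.11, adjusted p = 0.00311) at 72 h.

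POLRMT, the polymerase that these factors serve, did not fall. POLRMT (chr19:617221-633537) had 61.6, 63.6 and 50.1 TPM at 24 h and 50.5, 52.2 and 58.8 TPM at 72 h, against 49.3, 48.4 and 45.9 TPM in untreated cells. Every treated library was above every untreated one, though replicate 3 at 24 h exceeded the highest untreated library only narrowly. The log2 change of POLRMT was 0.28 (0.08 to 0.47, adjusted p = 0.0164) at 24 h and 0.16 (-0.04 to 0.36, adjusted p = 0.121) at 72 h. The 24 h call did not hold when untreated replicate 3 (adjusted p = 0.0544), 24 h replicate 1 (0.0542) or 24 h replicate 2 (0.0640) was left out, or with no filter on low values (0.0508). The 72 h value was called without 24 h replicate 3 (0.0416) or with the 24 h group left out of the fit (0.0483). Within each library, POLRMT mRNA per TFAM mRNA was 3.22, 2.97 and 2.42 at 24 h and 2.09, 2.00 and 2.40 at 72 h, against 1.39, 1.35 and 1.26 in untreated cells. The treated ratios all lay above the untreated ones (exact two-sided permutation test, p = 0.1 at each time, the smallest possible).

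TEFM, the elongation factor, was low at 24 h and near its untreated level at 72 h. TEFM (chr17:30898986-30906238) had 7.60, 12.1 and 11.5 TPM at 24 h and 21.8, 19.5 and 20.3 TPM at 72 h, against 19.5, 20.3 and 19.5 TPM in untreated cells. The 24 h libraries lay below all others, replicate 1 furthest, and the 72 h and untreated libraries overlapped. TEFM had a log2 change of -0.89 (-1.19 to -0.59, adjusted p = 1.36e-04) at 24 h, the largest fall of the 10 at that time. That rank did not hold with every library left out: TEFM ran between -1.01 and -0.70, and TFAM between -0.82 and -0.74. At 72 h it was 0.05 (-0.25 to 0.35, adjusted p = 0.746), a value whose sign turned to -0.04 with each library centred on its median gene or rescaled without mitochondrial genes.

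SLIRP fell most of the 10 at 72 h. SLIRP (chr14:77708071-77717598), the most abundant of the 10, had 246, 253 and 247 TPM at 24 h and 178, 181 and 172 TPM at 72 h, against 351, 359 and 403 TPM in untreated cells. The groups did not overlap, and the 72 h libraries were the lowest. On the log2 scale SLIRP changed by -0.57 (-0.69 to -0.46, adjusted p = 3.62e-06) at 24 h and -1.06 (-1.18 to -0.95, adjusted p = 4.41e-08) at 72 h, a 2.10-fold lower level. Its partner LRPPRC (chr2:43886224-43996265) had 99.8, 105 and 108 TPM at 24 h and 69.7, 64.4 and 58.2 TPM at 72 h, against 82.5, 103 and 81.7 TPM in untreated cells. The 72 h libraries were below all others, while the 24 h and untreated ones overlapped through untreated replicate 2.

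LRPPRC's log2 change at 72 h was -0.47 (-0.67 to -0.26, adjusted p = 0.00113). At 24 h it was 0.23 (0.02 to 0.44, adjusted p = 0.0450), a call that did not hold without untreated replicate 1 (adjusted p = 0.150), untreated replicate 3 (0.154), 24 h replicate 2 (0.0920), 24 h replicate 3 (0.118) or 72 h replicate 2 (0.0596). It was also lost after rescaling without mitochondrial genes (0.17, adjusted p = 0.117), with no filter on low values (adjusted p = 0.117) and without the trend of spread on level (0.0629). SLIRP mRNA per LRPPRC mRNA was 2.46, 2.41 and 2.30 at 24 h and 2.55, 2.81 and 2.95 at 72 h, against 4.25, 3.47 and 4.93 in untreated cells. All 6 treated ratios lay below the untreated ones (exact two-sided permutation test, p = 0.1 at each time, the smallest possible). The complex's mRNAs thus stood at unequal parts of their untreated levels at 24 h, 67.0% for SLIRP and 117% for LRPPRC, and at 47.6% and 71.9% at 72 h.

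Of the degradation pair, the nuclease fell at 72 h and the helicase did not. PNPT1 (chr2:55634061-55693844) had 16.2, 17.3 and 20.1 TPM at 24 h and 13.3, 16.7 and 12.3 TPM at 72 h, against 20.4, 20.3 and 19.4 TPM in untreated cells. The 72 h libraries were all below the untreated ones and the 24 h libraries overlapped them. Its log2 change was -0.49 (-0.73 to -0.25, adjusted p = 0.00187) at 72 h. At 24 h it was -0.16 (-0.40 to 0.07, adjusted p = 0.186), and 0.05 with each library centred on its median gene. SUPV3L1 (chr10:69180234-69209093) had 26.0, 27.3 and 27.9 TPM at 24 h and 26.3, 27.1 and 24.4 TPM at 72 h, against 25.0, 20.0 and 23.2 TPM in untreated cells.

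SUPV3L1's libraries at 24 h lay above the untreated ones, and those at 72 h overlapped them. Its log2 change was 0.25 (0.07 to 0.42, adjusted p = 0.0148) at 24 h, with an adjusted p of 0.0509 after rescaling without mitochondrial genes. At 72 h it was 0.19 (0.01 to 0.36, adjusted p = 0.0502), and it was called without untreated replicate 1 (adjusted p = 0.0146) or 72 h replicate 3 (0.0405), and with a filter of 5 TPM (0.0447). SUPV3L1 mRNA per PNPT1 mRNA was 1.60, 1.58 and 1.39 at 24 h and 1.97, 1.63 and 1.99 at 72 h, against 1.23, 0.982 and 1.19 in untreated cells. The treated ratios were all above the untreated ones (exact two-sided permutation test, p = 0.1 at each time, the smallest possible).

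**Figure D2:**
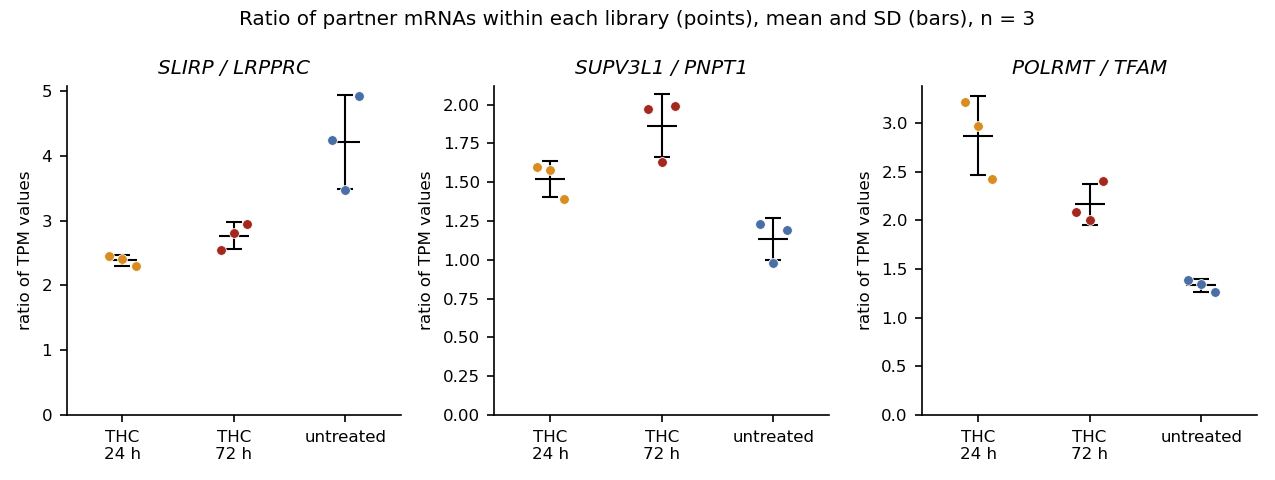
Ratio of TPM values of partner mRNAs in each library (points), with the mean and SD (bars, n = 3), for THC at 24 h, THC at 72 h and untreated cells, on axes that start at 0. SLIRP per LRPPRC lies lower, and SUPV3L1 per PNPT1 and POLRMT per TFAM lie higher, in all 6 treated libraries than in any untreated one.

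The replication genes changed direction between the times or changed late. TWNK (chr10:100987543-100994403) had 14.9, 15.4 and 14.2 TPM at 24 h and 24.9, 23.3 and 23.9 TPM at 72 h, against 20.3, 21.6 and 19.6 TPM in untreated cells. The 24 h libraries lay below and the 72 h libraries above the untreated ones. Its log2 change was -0.44 (-0.57 to -0.31, adjusted p = 4.82e-05) at 24 h and 0.22 (0.09 to 0.35, adjusted p = 0.00549) at 72 h, where the adjusted p was 0.0541 after rescaling without mitochondrial genes. POLG (chr15:89316320-89334824) had 32.1, 34.6 and 34.0 TPM at 24 h and 44.3, 43.0 and 44.8 TPM at 72 h, against 33.2, 33.8 and 35.8 TPM in untreated cells. It rose at 72 h, by 0.35 on the log2 scale (0.24 to 0.46, adjusted p = 8.56e-05), with the libraries apart. At 24 h the groups overlapped and its change was -0.03 (-0.14 to 0.08, adjusted p = 0.611), which became 0.19 (adjusted p = 0.00680) with each library centred on its median gene.

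**Figure D3:**
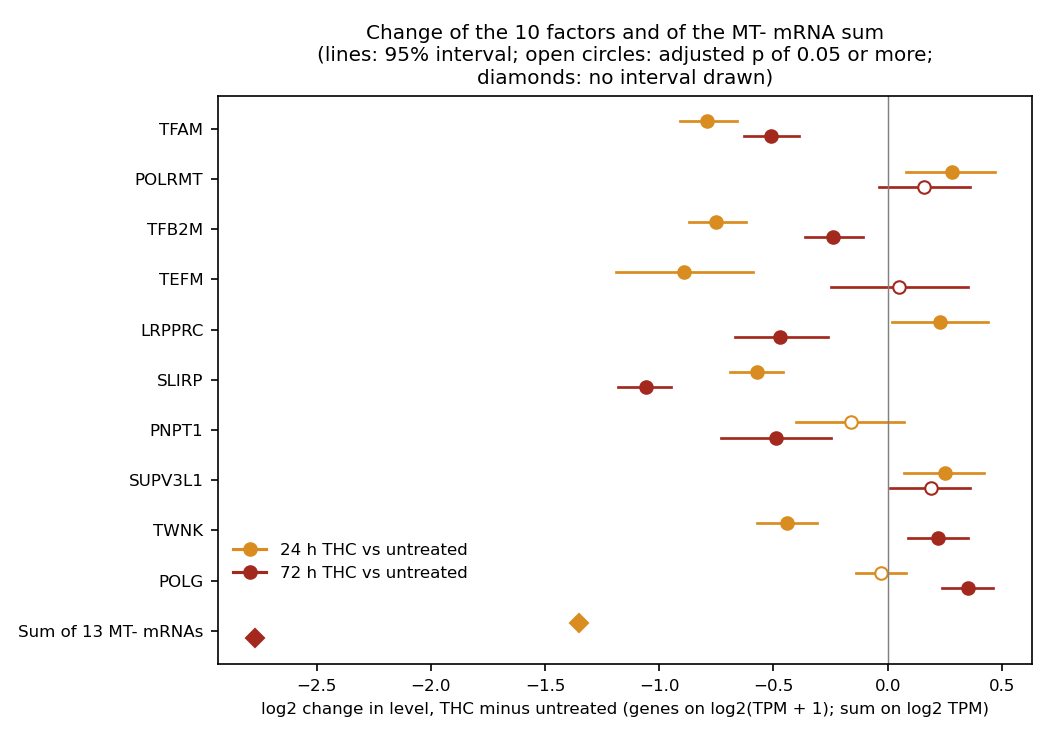
Log2 change of each factor on log2(TPM + 1) (circles, with 95% intervals as lines, open where the adjusted p was 0.05 or more) and of the MT- mRNA sum on log2 TPM (diamonds, no interval drawn), THC minus untreated, at 24 h and 72 h. The sum lies at -1.35 and -2.77, the factors between -1.06 and 0.35, and the signs of PNPT1 and POLG at 24 h and of TEFM at 72 h turn with median centring.

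The times were also compared directly, 72 h THC with 24 h THC, which tests whether the changes against the shared untreated cells differ. Of the 10 genes, 5 were called higher and 3 lower at 72 h, where 54.9% of all tested genes were called higher, 17.8% lower and 72.6% in either direction. TEFM (log2 change 0.94, SE 0.133, adjusted p = 1.12e-04), TWNK (0.66, adjusted p = 3.68e-06), TFB2M (0.51, adjusted p = 1.93e-05), POLG (0.38, adjusted p = 5.53e-05) and TFAM (0.28, adjusted p = 0.00108) were higher at 72 h than at 24 h. LRPPRC (-0.69, adjusted p = 7.70e-05), SLIRP (-0.49, adjusted p = 1.60e-05) and PNPT1 (-0.33, adjusted p = 0.0178) were lower. PNPT1 overlapped between the times and lost its call without 24 h replicate 3 (adjusted p = 0.0736), 72 h replicate 1 (0.0550) or 72 h replicate 3 (0.0720), and with no filter on low values (0.0519). POLRMT (-0.11, adjusted p = 0.278) and SUPV3L1 (-0.06, adjusted p = 0.518) were not called, and POLRMT was without 24 h replicate 3 (-0.22, adjusted p = 0.0215). TFAM, TFB2M, TEFM and TWNK, transcription and replication genes that fell at 24 h, were all higher at 72 h than at 24 h. TFAM was not so with median centring. Grouping genes by a fall at 24 h favours a rise here, because the same 24 h libraries enter this comparison. With 54.9% of all tested genes called higher, the shared direction is not a result about these genes. Both mRNAs of the protecting complex were lower, and SLIRP had also fallen at 24 h (-0.57).

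The median gene shifted by -0.22 on the log2 scale at 24 h, by 0.09 at 72 h and by 0.30 between the times. Centring each library on it put the share of higher among all calls at 49.1% at 24 h, 47.3% at 72 h and 44.5% between the times, where the values as deposited gave 32.6%, 54.8% and 75.5%. Relative to the median gene, TFAM changed by -0.57 at 24 h and -0.60 at 72 h, and its difference between the times, -0.03 (adjusted p = 0.647), turned sign and was no longer called. TFB2M changed by -0.53 and -0.33, SLIRP by -0.36 and -1.15, and LRPPRC by 0.45 and -0.55. POLRMT stood at 0.49 and 0.08 and SUPV3L1 at 0.47 and 0.10, and on this scale both were lower at 72 h than at 24 h (-0.42, adjusted p = 0.00231, and -0.36, adjusted p = 0.00451). POLG's difference between the times, 0.08, was not called (adjusted p = 0.200).

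The order of levels in untreated cells was SLIRP (371 TPM), LRPPRC (89.2), POLRMT (47.9), TFAM (35.9), POLG (34.3), SUPV3L1 (22.7), TWNK (20.5), PNPT1 (20.1), TEFM (19.8) and TFB2M (14.8). Among neighbours in that order, TFAM overlapped POLG, and SUPV3L1, TWNK and PNPT1 each overlapped the next one. By mean, SLIRP, LRPPRC, POLRMT and TFB2M had the same places in all 3 groups. LRPPRC and POLRMT overlapped at 72 h, and TFB2M overlapped TEFM at 24 h and PNPT1 at 72 h. TFAM stood below POLG and SUPV3L1 at 24 h, with no overlap with SUPV3L1, and TEFM stood above PNPT1 at 72 h with no overlap. Relative to single factors, the MT- mRNA sum per TFAM mRNA was 1373 ± 55.2 at 24 h and 419 ± 33.6 at 72 h, against 1984 ± 100 in untreated cells (SD, n = 3 each). Per LRPPRC mRNA the sum was 269 ± 4.71 at 24 h and 165 ± 28.7 at 72 h, against 812 ± 142 in untreated cells.

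The genes closest in pattern to TFAM, by Euclidean distance of centred log2(TPM + 1) over the 9 libraries, were MRPS17, a mitochondrial ribosomal protein, at 0.10 and RRAS2, a RAS-family GTPase, at 0.11, where the median gene lay at 1.13. For POLRMT they were MYG1 and NENF, both at 0.26 (median gene 1.12). For LRPPRC they were PPP2R2A, a regulatory subunit of protein phosphatase 2A, at 0.25 and the non-coding RNA LINP1 at 0.26 (median gene 1.51). For PNPT1 they were EEA1, an early endosome tether, at 0.25 and AHCTF1, a nuclear pore protein, at 0.26 (median gene 1.25). POLRMT, LRPPRC and PNPT1 thus had no neighbour as close as those of TFAM. The distances run over single libraries, and the part of the spread between replicates in them was not tested.

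A further 63 genes of the same processes were read from the same fit, of which 61 passed the filter. At 24 h 16 (26.2%) were called higher and 36 (59.0%) lower, beside 25.0% and 51.7% of all tested genes. At 72 h it was 18 (29.5%) and 22 (36.1%), beside 40.1% and 33.0%. With each library centred on its median gene the companions were 24 higher and 22 lower at 24 h, beside 36.0% and 37.3% of all tested genes, and 12 higher and 27 lower at 72 h, beside 34.8% and 38.9%. Between the times 29 were higher and 15 lower at 72 h, beside 54.9% and 17.8%, and 18 and 30 with centring, beside 30.4% and 37.9%. The balance of each list is to be read against these shares. Among 22 genes of mitochondrial RNA processing and turnover, 4 (18.2%) were higher and 16 (72.7%) lower at 24 h, or 6 and 9 with centring. At 72 h 7 (31.8%) were higher and 10 (45.5%) lower, or 4 and 11 with centring. TRMT10C, HSD17B10 and PRORP, the 3 proteins of the RNase P that frees mRNAs from the tRNAs between them, were all lower, by log2 changes of -1.04, -1.04 and -0.95 at 24 h and of -0.58, -0.91 and -0.58 at 72 h (largest adjusted p = 7.11e-06). PRORP was added after its values were seen, to complete the enzyme. It is among the genes counted as lower at both times, in this list and in the companion totals, so those shares are not independent of the data. FASTKD5, which is needed to process precursors that lack a tRNA end, stood at 3.61 ± 0.154 TPM at 24 h and 8.04 ± 0.529 TPM at 72 h, against 11.6 ± 0.497 TPM in untreated cells (SD, n = 3 each). It had the largest fall of this list at 24 h (log2 change -1.46, adjusted p = 3.13e-08), before FASTKD3 (-1.13), a relative. At 72 h PDE12, which removes poly(A) tails in mitochondria, fell most (-0.93, adjusted p = 2.80e-07), followed by HSD17B10 and PTCD3 (-0.65), a protein of the mitochondrial ribosome. PDE12 and PTCD3 were also lower at 24 h (-0.86 and -0.35, larger adjusted p = 0.00406), PTCD3 not with centring (-0.14, adjusted p = 0.165).

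Of 9 partners of initiation and termination, 2 (22.2%) were higher and 7 (77.8%) lower at 24 h, or 2 and 4 with centring. At 72 h 3 (33.3%) were higher and 4 (44.4%) lower, or 2 and 5 with centring. Of all tested genes 25.0% were higher and 51.7% lower at 24 h, or 36.0% and 37.3% with centring. At 72 h those shares were 40.1% and 33.0%, or 34.8% and 38.9% with centring. At 24 h the largest falls of this list were in the termination-factor family: MTERF2 changed by -1.09, MTERF3 by -0.79 and MTERF1 by -0.71 (largest adjusted p = 8.89e-05). The other family member, MTERF4, named after its values were seen, changed by -0.35 at 24 h (adjusted p = 0.00118; -0.13, adjusted p = 0.118, with centring) and rose by 0.48 at 72 h (adjusted p = 1.35e-04). At 72 h MRPL12, a ribosomal protein reported to bind POLRMT, fell (-0.94, adjusted p = 1.20e-07), as did TFB1M, the rRNA methyltransferase related to TFB2M (-0.59, adjusted p = 1.21e-04). TOP1MT, the mitochondrial topoisomerase, was higher (0.67, adjusted p = 5.74e-05), as it was at 24 h (0.63, adjusted p = 8.18e-05). MRPL12 (-0.15) and TFB1M (-0.29) were called lower at 24 h as deposited and not called with centring. Among 19 tested genes of replication and nucleotide supply, 5 (26.3%) were higher and 10 (52.6%) lower at 24 h, or 8 and 6 with centring. At 72 h 6 (31.6%) were higher and 5 (26.3%) lower, or 5 and 6 with centring. The shares of all tested genes given above for the 9 partners apply here too. LIG3, a DNA ligase of nucleus and mitochondria, had 82.5 ± 6.01 TPM at 24 h and 43.0 ± 0.415 TPM at 72 h, against 37.4 ± 3.49 TPM in untreated cells (SD, n = 3 each; 24 h log2 change 1.12, adjusted p = 2.44e-07). At 24 h ENDOG, a mitochondrial nuclease, and TK2, the mitochondrial thymidine kinase, fell (-1.38 and -1.05). At 72 h DNA2, ENDOG and SSBP1, the mitochondrial single-strand binding protein that works with TWNK and POLG, were lower (-0.86, -0.58 and -0.53, largest adjusted p = 2.04e-04). DNA2 and SSBP1 were also lower at 24 h (-0.46 and -0.69, larger adjusted p = 0.00101).

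Of the nuclear regulators, 11 of 12 were tested, with 5 (45.5%) higher and 3 (27.3%) lower at 24 h, or 8 and 3 with centring. At 72 h 2 (18.2%) were higher and 3 (27.3%) lower, or 1 and 5 with centring. Of all tested genes 25.0% were higher and 51.7% lower at 24 h, or 36.0% and 37.3% with centring. At 72 h those shares were 40.1% and 33.0%, or 34.8% and 38.9% with centring. NRF1 itself had 11.2 ± 0.115 TPM at 24 h and 13.1 ± 0.512 TPM at 72 h, against 11.6 ± 0.649 TPM in untreated cells (SD, n = 3 each). It was called higher at 72 h (log2 change 0.17, adjusted p = 0.0231) and not called at 24 h (-0.04, adjusted p = 0.578). With median centring NRF1 was called higher at 24 h (0.18, adjusted p = 0.0104) and not called at 72 h (0.08, adjusted p = 0.168), and after rescaling without the MT- genes it was called at neither time (-0.09 at 24 h, adjusted p = 0.161, and 0.09 at 72 h, adjusted p = 0.200). The 2 subunits of the ETS-motif factor diverged at 24 h: GABPA, which binds DNA, changed by -0.51 (adjusted p = 1.21e-04) and GABPB1, its partner, by 0.65 (adjusted p = 5.77e-06). At 72 h GABPA was lower (-0.41, adjusted p = 5.67e-04) and GABPB1 was not called (-0.13, adjusted p = 0.0929), though it was called lower with centring (-0.21, adjusted p = 0.00666) and after rescaling without mitochondrial genes (-0.21, adjusted p = 0.0105). YY1 fell at both times (-0.63 and -0.38). ATF5, a stress-responsive factor of mitochondrial proteostasis, had 12.7 ± 1.68 TPM at 24 h and 54.1 ± 3.37 TPM at 72 h, against 33.3 ± 1.95 TPM in untreated cells (SD, n = 3 each). It was lower at 24 h and higher at 72 h (-1.33, adjusted p = 3.20e-07, and 0.68, adjusted p = 5.19e-05).

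The coactivator genes PPRC1 (0.30), PPARGC1B (0.25) and the factors CREB1 (0.33) and ESRRA (0.27) were called higher at 24 h, ESRRA with overlapping groups and not after rescaling without mitochondrial genes (0.21, adjusted p = 0.0657). None of the 4 was called at 72 h. MYC changed by 0.02 at 24 h (adjusted p = 0.811; 0.23, adjusted p = 0.00225, with centring) and by -0.38 at 72 h (adjusted p = 1.21e-04). TFEB was not called at 24 h (0.05, adjusted p = 0.682) or 72 h (-0.26, adjusted p = 0.0611). With centring TFEB was called higher at 24 h (0.27, adjusted p = 0.0490) and lower at 72 h (-0.34, adjusted p = 0.0177), and after rescaling it was lower at 72 h (-0.32, adjusted p = 0.0253). PPARGC1A, the best-known inducer of mitochondrial genes, stayed below the filter with means of 0.205 TPM at 24 h, 0.356 TPM at 72 h and 0.206 TPM in untreated cells.

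**Figure D4:**
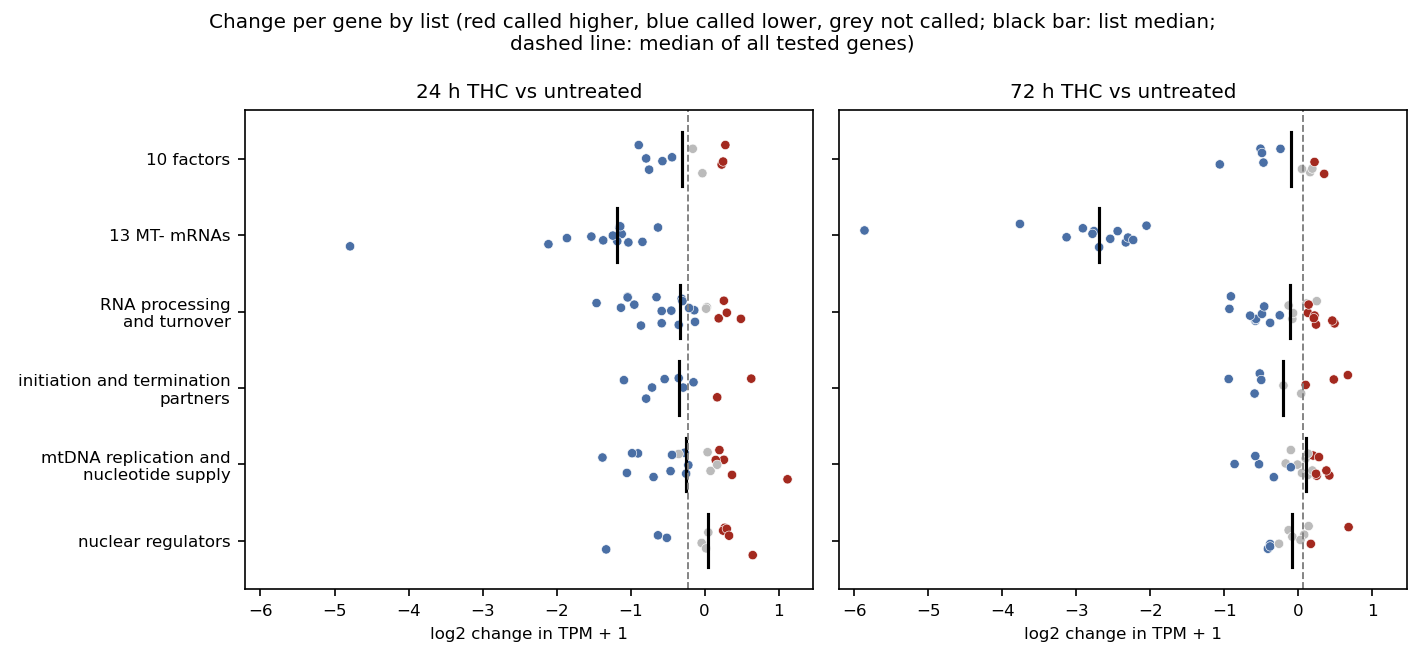
Log2 change in TPM + 1 of each tested gene, THC minus untreated, at 24 h (left) and 72 h (right), by list (rows), with the list median as a black bar and the median of all tested genes as a dashed line. The 13 MT- mRNAs lie to the left at both times, with medians of -1.18 and -2.69, and the 10 factors and 4 further lists spread on both sides of 0, to an extent that shifts with median centring.

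Each of SLIRP, TWNK, TFB2M, POLG and POLRMT has a neighbour on the other strand that starts within 1000 bases. ALKBH1, a demethylase of tRNA and DNA that starts 48 bases from SLIRP, had a log2 change of -0.51 (adjusted p = 6.32e-04) at 24 h and -0.05 (adjusted p = 0.664) at 72 h, the time at which SLIRP was lowest. MRPL43, a mitochondrial ribosomal protein that starts 46 bases from TWNK, changed by -0.60 (adjusted p = 6.10e-05) at 24 h and -0.47 (adjusted p = 3.80e-04) at 72 h, when TWNK was higher. CNST, 195 bases from TFB2M, was not called at either time (-0.24, adjusted p = 0.0527, and -0.15, adjusted p = 0.219), but it was called lower at 24 h after rescaling without mitochondrial genes (-0.30, adjusted p = 0.0215) and at 72 h with centring (-0.23, adjusted p = 0.0499). POLG-DT, whose start lies 337 bases from that of POLG on the other strand, stayed below the filter. LOC105372234, a lncRNA whose start lies 73 bases from that of POLRMT and inside it, was matched to no symbol of the expression table. Reads of genes that overlap on opposite strands cannot be assigned with certainty, since no source used here says that counting used the strand.

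At the authors' threshold, ATAC and H3K4me3 peaks lay at the starts of the 10 genes in nearly all libraries of every group. Within 1000 bases of the start, all 10 had an ATAC peak in all 6 libraries of the 24 h and untreated groups, as did 91.1% of the promoters of tested genes. For the 72 h and untreated groups it was 9 of 10, beside 80.4%. With peaks of -log10 q of at least 5 the numbers were 6 of 10 at 24 h, beside 60.8% of promoters, and 3 of 10 at 72 h, beside 26.6%. The exception was TWNK, which had no peak in 72 h replicate 2, the library with the fewest peaks (38495). A promoter was counted as gained if listed in all 3 THC and no untreated library, and as lost in the reverse case. None of the 10 was gained (0% of promoters at 24 h and 0.00992% at 72 h) or lost (0.178% at 24 h and 0.248% at 72 h). No test was applied to these counts, and the fold of single peaks was not compared between lists.

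ATAC peaks covered between 114 and 1386 of the 2001 bases around a start. SLIRP had the lowest median of covered bases of the 10 genes in each group: peaks covered 130 to 338 bases at 24 h and 125 to 328 bases at 72 h, against 325 to 403 bases in untreated cells. At each time 1 THC library reached into the untreated range. The lowest SLIRP values, 130 and 125 bases, came from replicate 2 at each time, the library with the fewest peaks of its group (57356 at 24 h and 38495 at 72 h). TFAM peaks covered 948 to 1010 bases at 24 h and 296 to 1032 bases at 72 h, against 959 to 1045 bases in untreated cells. The 296 bases came from 72 h replicate 2, while replicates 1 and 3 had 1032 and 1013 bases. POLG peaks covered 1026 to 1354 bases at 24 h and 939 to 1305 bases at 72 h, against 1213 to 1355 bases in untreated cells. The lowest POLG values, 1026 and 939 bases, came from replicate 1 at each time. The part of the number of peaks per list in these extents was not tested. All 10 genes had an H3K4me3 peak in all 6 libraries, as did 93.8% of promoters (10 genes and 93.5% at -log10 q of at least 5), and none was gained (0.0496% of promoters) or lost (0%). The mark filled the whole window in every library for 9 genes. In PNPT1 it covered 1718 to 1850 bases in THC libraries and 1631 to 1824 bases in untreated ones.

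**Figure D5:**
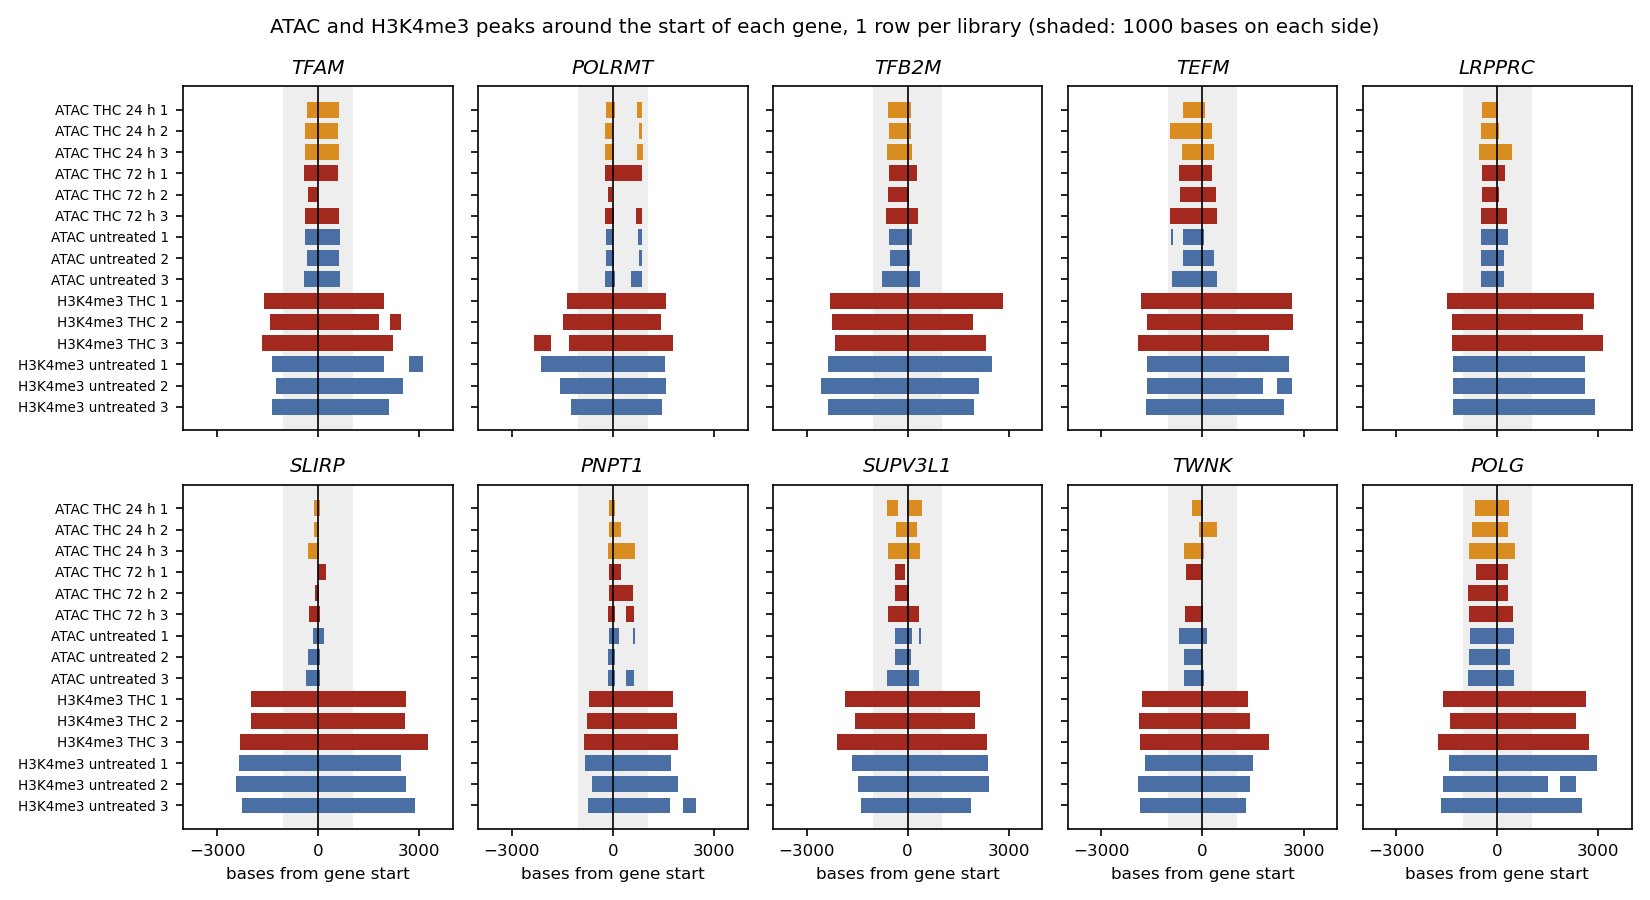
Extent of each ATAC and H3K4me3 peak (bars) by distance from the gene start in bases (horizontal axis), 1 row per library, THC above untreated within each assay, with the 1000 bases on each side shaded. All 10 starts carry an ATAC peak in every library but TWNK in 72 h replicate 2, and H3K4me3 covers 1631 to 2001 of the 2001 shaded bases.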

How the data were processed

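RNA values are TPM as deposited by the authors, with the same total in every library over 60179 identifiers, of which 59918 had a symbol in a table of gene names. Depth cannot be read from TPM, so a count test, counting intervals and detection limits were not possible, and a change in abundant RNA moves all others. Per the labels' protocols, RNA libraries came from a stranded total RNA kit. The submitters' processing notes name GRCh38 as the build and, with no roles, MACS2 2.2.7.1, MACS3, Salmon, Bowtie2, Trim Galore and Picard among the tools. Peaks were called per library, and their deposited -log10 q values were used only inside each list, for a stricter threshold and for ranks, and began at about 1.3 for ATAC and 2.0 for H3K4me3. The IgG CUT&RUN control is not analysed here.

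The 9 RNA libraries in 3 groups were fitted with limma 3.58.1 under R 4.3.3. The response was log2(TPM + 1), 13753 genes averaged at least 1 TPM and entered, and the spread was moderated with a trend on level. A pseudocount of 1 understates the changes of low genes. A gene was called at a Benjamini-Hochberg adjusted p below 0.05 over all tested genes. Single values per library (sums, ratios) had exact two-sided permutation tests. As a check of the calculation only, the fit was also run on simulated data with known changes, which bears on no result given here. The p-values measure the spread between these libraries, which the labels call biological replicates without naming cultures or days.

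Members and lists were chosen with earlier results of these data known. Named genes are the 10 members, the 13 MT- mRNAs, neighbours starting within 1000 bases on the other strand, the 3 called genes with the largest change per list and time, all regulators, and the 2 nearest genes in pattern for 4 members. Starts, coordinates and promoter sequences are RefSeq's (GRCh38.p14). The promoter table held 9 of the 10 members, and the start of TWNK is its lower RefSeq coordinate, taken as the plus strand. Backgrounds of the peak counts are 10085 tested genes with an entry, and those of the motif shares are all 27305 promoters, tested or not. Further steps used scipy 1.17.1 (permutations), pandas 2.3.3, matplotlib 3.10.9 and numpy 2.4.6 under Python 3.11.15. Alternatives changed the pseudocount, filter, scaling, spread model, fitted groups, libraries, replicate block, promoter window, peak threshold and overlap.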

Additional observations from a re-analysis of the deposited data

Results flagged for a closer look

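The log2 change of 8 of the 10 genes differed between the THC times by the direct test of 72 h against 24 h (limma, adjusted p below 0.05), in which the shared untreated libraries cancel. The difference was 0.94 for TEFM, 0.66 for TWNK, 0.51 for TFB2M, 0.38 for POLG and 0.28 for TFAM, all higher at 72 h. It was -0.69 for LRPPRC, -0.49 for SLIRP and -0.33 for PNPT1, all lower at 72 h. PNPT1 overlapped between the times and lost its call without 24 h replicate 3, 72 h replicate 1 or 72 h replicate 3. TWNK was below the untreated libraries in 3 of 3 libraries at 24 h and above them in 3 of 3 at 72 h. With each library centred on its median gene the difference for TFAM became -0.03 and that for POLG 0.08, and neither was called. Of all tested genes 72.6% were called in this comparison, so the count of 8 is not a result about the 10 genes.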

How the results depend on the processing

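Of 510 recomputed changes of single members, 478 kept their direction and side of the threshold, 19 lost a call, 8 gained one and 5 turned sign. The turned ones were PNPT1 (0.05) and POLG (0.19) at 24 h, TEFM at 72 h (-0.04) and TFAM between the times (-0.03) with median centring, and TEFM at 72 h (-0.04) after rescaling without mitochondrial genes. Members called higher at 24 h numbered 3 as reported, and 1 with no filter or after rescaling. At 72 h they numbered 1 after rescaling. With median centring, members between the times were 3 higher and 5 lower, companion genes lower at 24 h numbered 22, and companion genes between the times were 18 higher and 30 lower. After rescaling, companion genes higher at 72 h numbered 11 of 61 tested. The counts after rescaling or centring are to be read against the shares of all tested genes. Rescaling gave 22.7% higher at 24 h and 35.1% higher at 72 h. Median centring gave 37.3% lower at 24 h, and 30.4% higher and 37.9% lower between the times. With the rRNAs added, the MT- sum changed by -1.14 at 24 h and -2.52 at 72 h on the log2 scale. At -log10 q of at least 5, ATAC peaks were listed in all 6 libraries for 6 members at 24 h (60.8% of promoters) and 3 at 72 h (26.6%). The causes of these moves were not tested. Leaving out single libraries gave 1 to 3 members higher and 5 to 5 lower at 24 h, 2 to 3 and 5 to 5 at 72 h, and 5 to 5 and 2 to 3 between the times. Members higher at 24 h numbered 1 without untreated replicate 3 or without 24 h replicate 2.

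Same-numbered replicates deviated with correlations of -0.199 to 0.252. Differently numbered libraries were not set beside them, so these values cannot decide whether the numbers pair the samples. With the replicate number as a block, 3 members were higher and 5 lower at 24 h, 2 and 5 at 72 h and 5 and 3 between the times, and no member's call changed. RNA depth is unknown, and the exact permutation test of 3 against 3 libraries cannot go below p = 0.1.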
